A study of Mus musculus with 12 samples.

Results

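The genes described here are 8 C-type lectin receptors of myeloid cells, Clec4a1, Clec4a2, Clec4a3, Clec4b1, Clec4d, Clec4e, Clec4n and Clec7a, together with Slamf9 and Dpep2. They were selected by symbol from the table of all genes, and some were chosen because the study names them as lower in tumours of mice given the CSF1R antibody but not in those given IL-10-Fc or BF10. The 10 symbols stood on 11 of the 55401 rows, and 10 of those rows passed the filter on low values that left 15813 genes. The row that did not pass is a second gene that also carries the symbol Dpep2. It reached at most 1.05 FPKM (fragments per unit of transcript length and of library size). RNA came from samples labelled as orthotopic oral tumour tissue, grown from MTC-Q1 mouse oral cancer cells in C57BL/6 mice, with treatment from a tumour volume of 100 mm3. Ctrl-IgG mice received the control isotype IgG1-Fc, aCSF1R mice an antibody against the macrophage growth factor receptor CSF1R, IL-10-Fc mice recombinant interleukin-10 joined to Fc, and BF10 mice the IL10/CSF1R fusion protein. Each of the 4 groups had 3 libraries, and all 12 came from whole tumour pieces. The labels give 4 doses in one place and 6 in another, no age and no sex, and nothing on whether libraries of a group came from separate animals, so the p-values measure only the spread between these libraries.

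C-type lectin receptors sit on macrophages, monocytes, dendritic cells and neutrophils and bind sugars, glycolipids and other ligands of microbes and dying cells. Clec4a2 encodes DCIR, which carries an inhibitory motif in its tail and recruits phosphatases such as that of Ptpn6. Clec4d (MCL), Clec4e (Mincle) and Clec4n (Dectin-2) signal through the Fc receptor gamma chain Fcer1g, and Clec7a (Dectin-1), a receptor for fungal beta-glucan, carries its own activating motif. All of them lead to the kinase Syk and the adaptor Card9. Slamf9 is a SLAM family receptor of myeloid cells, and Dpep2 is a membrane dipeptidase that converts leukotriene D4 to leukotriene E4.

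Some libraries stood apart before any of these genes were considered. The 6 libraries labelled IL-10-Fc or BF10 held 553 to 1727 FPKM of H2-Ea, an MHC class II gene that C57BL/6 mice do not express, and 294 to 614 FPKM of the simple epithelial keratin Krt18. The 6 libraries labelled Ctrl-IgG or aCSF1R held at most 0.27 FPKM of H2-Ea and at most 0.09 FPKM of Krt18, although all are labelled oral cancer, and Xist divided the same libraries, at 17.1 to 30.7 FPKM against at most 0.04 FPKM. A comparison across these sides therefore carries more than the treatment, and the treatment and that difference cannot be told apart. Within each side, 4 libraries (Ctrl-IgG 2, IL-10-Fc 1, IL-10-Fc 2 and BF10 1) had an FPKM sum of 819001 to 976950, against 637596 to 701275 in the other 8, and a mitochondrial share of 6.57% to 9.04% against 2.99% to 3.61%. Another 3 libraries, Ctrl-IgG 3, aCSF1R 1 and aCSF1R 2, held over 100 FPKM of the squamous keratin Krt14. FPKM values carry no counts, and their steps at low values put the relative depth of the libraries within a 1.5-fold range, so no counting interval was given.

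Of the 10 genes, 7 lie within one cluster on chromosome 6 (GRCm38), where Clec4a1, Clec4a3, Clec4b1, Clec4a2, Clec4n, Clec4d and Clec4e follow each other from 122921848 to 123289870. Clec7a lies farther along chromosome 6, at 129461591 to 129472779, and is annotated as a polymorphic pseudogene in GENCODE M21. Slamf9 is on chromosome 1 at 172475358 to 172478575 and Dpep2 on chromosome 8 at 105984944 to 105991759. In Ctrl-IgG tumours, Clec4a2 had the highest mean of the 10, 39.5 ± 24.5 FPKM (SD, n = 3), and Clec4b1 the lowest, 3.26 ± 2.08 FPKM (SD, n = 3). Between them came Clec4a3, Clec4d, Slamf9, Clec4a1, Clec7a and Clec4n, with means of 29 down to 19.3 FPKM that overlapped from library to library. Dpep2 and Clec4e were lower, at means of 7.46 and 6.21 FPKM. Stretches of 75 bases were compared between transcripts to see whether reads could be shared: Clec4a1, Clec4a3, Clec4d, Clec4e, Clec4n, Clec7a and Slamf9 shared none with another gene. Clec4a2 shared 4.03% of its stretches with Clec4a4 and Clec4b1, and Clec4b1 shared 1.19% with Clec4a2. Dpep2 shared 25.8%, with Gm22972 and the second gene of the same symbol. The values of Clec4a2, Clec4b1 and Dpep2 are therefore less certain.

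Promoters are shown for 3 pairs of these genes: the neighbours Clec4a1 and Clec4a3, Clec4a2 and Slamf9, whose levels followed each other most closely, and Clec4d and Clec4e, whose levels in aCSF1R overlapped Ctrl-IgG. RefSeq sequences (GRCm38.p6) were matched for 8 of the 10 genes. Each line holds 100 bases upstream of a start, read in the direction of the gene, and capitals mark GAGGAA or its reverse complement TTCCTC, the core bound by the myeloid transcription factor PU.1. Clec4a1 is shown from 250 bases before its start (chr6:122921598-122921697, plus strand) and Clec4a3 directly before its second start (chr6:122952544-122952643, plus strand). Clec4a2 is shown directly before an exon annotated upstream of its RefSeq start (chr6:123122522-123122621, plus strand) and Slamf9 directly before its first exon (chr1:172475258-172475357, plus strand). Clec4d is shown from 250 bases before its start (chr6:123261857-123261956, plus strand) and Clec4e directly before its start (chr6:123289872-123289971, minus strand).
Clec4a1: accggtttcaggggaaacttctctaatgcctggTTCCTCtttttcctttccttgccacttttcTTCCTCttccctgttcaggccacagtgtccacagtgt
Clec4a3: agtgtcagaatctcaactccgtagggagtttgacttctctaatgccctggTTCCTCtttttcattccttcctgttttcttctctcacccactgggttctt
Clec4a2: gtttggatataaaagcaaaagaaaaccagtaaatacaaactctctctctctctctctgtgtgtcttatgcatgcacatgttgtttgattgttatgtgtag
Slamf9: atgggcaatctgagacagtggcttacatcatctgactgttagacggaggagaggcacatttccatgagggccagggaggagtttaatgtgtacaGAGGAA
Clec4d: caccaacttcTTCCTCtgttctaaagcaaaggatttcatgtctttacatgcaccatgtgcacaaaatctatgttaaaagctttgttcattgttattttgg
Clec4e: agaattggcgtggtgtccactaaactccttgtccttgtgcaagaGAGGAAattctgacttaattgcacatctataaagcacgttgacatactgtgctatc

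In the 250 bases before a start, GAGGAA on either strand was present for 7 of the 8 genes matched, Clec4a1, Clec4a3, Clec4b1, Clec4d, Clec4e, Clec7a and Slamf9, and in 23.3% of all 32851 promoters (25.9% of 27025 genes with any start counted). Clec4a2 held no such match, although its level followed that of Slamf9. The letters TTCNNNGAA, to which STAT factors bind, were present for 1 of the 8, Clec4a2, and in 7.02% of all promoters. The Clec4a2 match has its first base at -42 from the start, outside the bases shown. The longest run shared by any of the 28 pairs was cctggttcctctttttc, 17 bases that hold the TTCCTC of both Clec4a1 (first base at -222 from its start) and Clec4a3 (first base at -55). The next longest was 13 bases, between Clec4b1 and Slamf9. These matches are letters in a window and say nothing on binding.

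The first question was how these receptors stood after the CSF1R antibody. Because this contrast chose members of the list, its values are given as a description with no test. All 3 aCSF1R libraries lay below all 3 Ctrl-IgG libraries for 6 of the 10 genes, Clec4a1, Clec4a2, Clec4a3, Clec4b1, Clec4n and Slamf9, where 6.04% of the 15813 genes had that order. Clec4d, Clec4e, Clec7a and Dpep2 overlapped between the groups. Over the 10 genes the median log2 fold change (on log2(FPKM + 1), the scale of every fold change here) was -1.03, and over all genes it was 0.11. With calls made by limma below an adjusted p of 0.05 and from a fold of 1.5 upward, no gene was called in this contrast (0% higher and 0% lower of 15813), and 437 genes had an unadjusted p under 0.05.

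**Figure D1:**
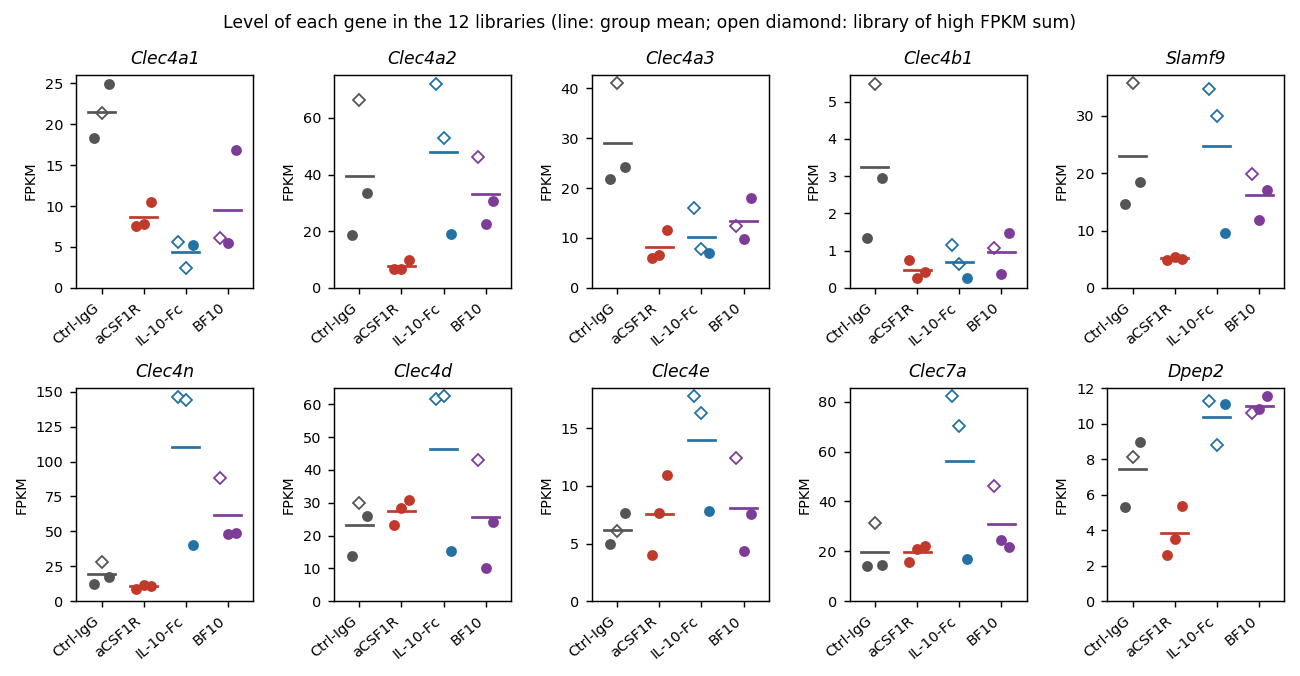
FPKM (vertical axis, from 0) of each of the 10 genes in every library, by treatment group (horizontal axis). Points are libraries, lines are group means, and open diamonds are the 4 libraries of high FPKM sum. The 3 aCSF1R points of Clec4a2 lie between 6.52 and 9.9 FPKM, below every other point of that gene, whereas those of Clec4d, at 23.14 to 30.84 FPKM, overlap the Ctrl-IgG points.

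Among the DCIR-type receptors, Clec4a2 was at 18.57, 66.5 and 33.57 FPKM in Ctrl-IgG 1 to 3 and at 6.52, 6.6 and 9.9 FPKM in aCSF1R 1 to 3. The log2 fold change was -2.07 (SE 0.53), a 4.19-fold lower fitted level and the farthest below 0 of the 10. The high Ctrl-IgG value is that of the library of high FPKM sum, and without the 4 such libraries the log2 fold change was -1.61. In the other groups Clec4a2 stood at 72.04, 53.04 and 19.01 FPKM in IL-10-Fc and at 46.32, 22.44 and 30.83 FPKM in BF10. Both ranges overlapped that of Ctrl-IgG, and neither reached down to the aCSF1R libraries.

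Slamf9 moved with Clec4a2 across the series. It was at 14.63, 35.67 and 18.45 FPKM in Ctrl-IgG and at 4.94, 5.43 and 5.07 FPKM in aCSF1R, where the SD was 0.254 FPKM (n = 3). The log2 fold change was -1.86 (SE 0.46), and -1.50 without the libraries of high FPKM sum. IL-10-Fc libraries held 34.71, 29.99 and 9.48 FPKM and BF10 libraries 19.93, 11.76 and 17.13 FPKM, so IL-10-Fc 3 and BF10 2 lay below all 3 Ctrl-IgG libraries and the rest among them. Over the 12 libraries, Pearson's r of Slamf9 with Clec4a2 was 0.98, the highest of the 45 pairs, and 0.94 over the deviations from the group means. These are descriptions over 12 points that share depth, tumour composition and the library differences above.

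Clec4a1 and Clec4a3, a pair of DCIR-like neighbours at the start of the cluster, were lower in 3 of the groups. Clec4a1 was at 18.32, 21.34 and 24.96 FPKM in Ctrl-IgG, at 7.59, 7.84 and 10.46 in aCSF1R, at 5.59, 2.43 and 5.22 in IL-10-Fc, and at 6.14, 5.49 and 16.89 in BF10. Every library of the other groups lay below every Ctrl-IgG library, and BF10 3 was the nearest to them. Clec4a3 was at 21.8, 41.05 and 24.26 FPKM in Ctrl-IgG, at 6.08, 6.68 and 11.69 in aCSF1R, at 16.11, 7.71 and 7.08 in IL-10-Fc, and at 12.44, 9.72 and 17.95 in BF10. It showed the same order, with all 9 libraries of the treated groups below Ctrl-IgG. For IL-10-Fc and BF10 that order crosses the sides described above, and the share of all genes with it is not given here. Against Ctrl-IgG, the log2 fold changes in aCSF1R were -1.23 (SE 0.39) for Clec4a1 and -1.71 (SE 0.38) for Clec4a3.

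Clec4b1, which encodes the DCAR receptor that couples to Fcer1g, was the least expressed of the list. Ctrl-IgG libraries held 1.35, 5.47 and 2.95 FPKM, aCSF1R libraries 0.76, 0.27 and 0.42, IL-10-Fc libraries 1.15, 0.64 and 0.26, and BF10 libraries 1.06, 0.36 and 1.46. The aCSF1R and IL-10-Fc ranges lay below that of Ctrl-IgG, and BF10 3 overlapped its lowest library. For IL-10-Fc that order crosses the sides described above, and the share of all genes with it is not given here. The log2 fold change in aCSF1R was -1.41 (SE 0.37) with a pseudocount of 1 and -2.41 with a pseudocount of 0.1, since the added 1 is large against these values.

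Clec4n, the receptor Dectin-2, had the widest range of the list. It was at 12.46, 28.38 and 17.08 FPKM in Ctrl-IgG and at 8.95, 11.85 and 11.17 in aCSF1R, and the groups did not overlap. In IL-10-Fc it was at 145.91, 143.81 and 40.41 FPKM, and in BF10 at 87.93, 48.15 and 48.46 FPKM. All 6 of these libraries lay above every Ctrl-IgG and aCSF1R library. That order crosses the sides described above, and the share of all genes with it is not given here. The 3 highest, IL-10-Fc 1, IL-10-Fc 2 and BF10 1, are those of high FPKM sum.

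Clec4d, Clec4e and Clec7a, which like Clec4n lead to Syk and Card9, did not share the lower values in aCSF1R. Clec4d was at 13.61, 30.02 and 25.89 FPKM in Ctrl-IgG and at 23.14, 28.48 and 30.84 in aCSF1R, with a log2 fold change of 0.30 (SE 0.59). Clec4e was at 4.93, 6.08 and 7.63 FPKM in Ctrl-IgG and at 4.03, 7.67 and 10.95 in aCSF1R, with a log2 fold change of 0.17 (SE 0.43). Without the 3 libraries of over 100 FPKM of Krt14, which leaves aCSF1R 3 alone in its group, the value for Clec4e was 0.88. Clec7a was at 14.1, 31.17 and 14.43 FPKM in Ctrl-IgG and at 15.55, 20.92 and 22.24 in aCSF1R, with a log2 fold change of 0.06 (SE 0.55). The groups overlapped for all 3, and the 95% confidence interval of Clec7a ran from -1.15 to 1.27.

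In the IL-10 groups these 3 genes varied widely between libraries of the same treatment. Clec4d was at 61.65, 62.38 and 15.26 FPKM in IL-10-Fc and at 43.02, 10.09 and 24.19 in BF10. Clec4e was at 17.83, 16.3 and 7.79 FPKM in IL-10-Fc and at 12.44, 4.36 and 7.56 in BF10. Clec7a was at 82.22, 70.17 and 16.84 FPKM in IL-10-Fc and at 46.24, 24.62 and 21.91 in BF10. For each of the 3, the libraries of high FPKM sum (IL-10-Fc 1, IL-10-Fc 2 and BF10 1) were the 3 highest.

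Dpep2 was at 5.3, 8.14 and 8.95 FPKM in Ctrl-IgG and at 2.57, 3.51 and 5.36 in aCSF1R, where aCSF1R 3 lay just above Ctrl-IgG 1. The log2 fold change was -0.83 (SE 0.26), and -0.25 without the 3 libraries that held over 100 FPKM of Krt14. That fit leaves aCSF1R 3 as the only aCSF1R library. It was at 11.27, 8.78 and 11.08 FPKM in IL-10-Fc and at 10.61, 10.81 and 11.56 in BF10. These 6 libraries lay above all aCSF1R libraries, and those of BF10 lay above Ctrl-IgG as well. Such orders cross the sides described above, and the share of all genes with them is not given here. In BF10 against aCSF1R the log2 fold change of Dpep2 was 1.36 (SE 0.26), and 0.91 without the Krt14 libraries.

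The second question was whether the CSF1R-binding part of BF10 added to what IL-10-Fc gave. Clec4a2, Clec4b1, Slamf9 and Dpep2 were named by the study with these libraries in view, so their values are a description, and tests were read for the other 6 genes. None of the 6 was called by limma, where 0.00632% of all genes were called higher and 0.00632% lower (1 gene each way), and none had an unadjusted p under 0.05. All 10 genes overlapped between BF10 and IL-10-Fc, where 4.67% of all genes had all 3 BF10 libraries above and 0.512% all 3 below. Clec4a1 came nearest, with a log2 fold change of 0.85 (SE 0.39, 95% confidence interval -0.01 to 1.72, adjusted p = 0.478), and all 3 BF10 libraries lay above the IL-10-Fc mean of 4.41 FPKM. Clec4a2 had a log2 fold change of -0.39 (interval -1.56 to 0.78) and Slamf9 one of -0.42 (interval -1.42 to 0.58). Dpep2 had the narrowest interval, -0.50 to 0.67 around 0.08. The intervals of all 10 genes reached past a 1.5-fold change in at least 1 direction.

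The sign of several of these differences depended on the libraries of high FPKM sum, of which IL-10-Fc had 2 and BF10 had 1. With all libraries, 6 of the 10 genes were below 0 and the median was -0.40, while the median over all genes was 0.34. Without the 4 libraries of high FPKM sum, an alternative chosen after seeing the data, the median of the 10 became 0.45 and none of the 6 tested was called. That fit holds 1 IL-10-Fc library against 2 of BF10, and the lone library is assumed to vary like the other groups. Clec4a2 then stood at 0.45, Slamf9 at 0.54, Clec7a at 0.44, Clec4n at 0.25 and Clec4d at 0.04, all on the other side of 0. Clec4a1 (0.79), Clec4a3 (0.82) and Clec4b1 (0.54) kept their sign, and so did Clec4e (-0.38).

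**Figure D2:**
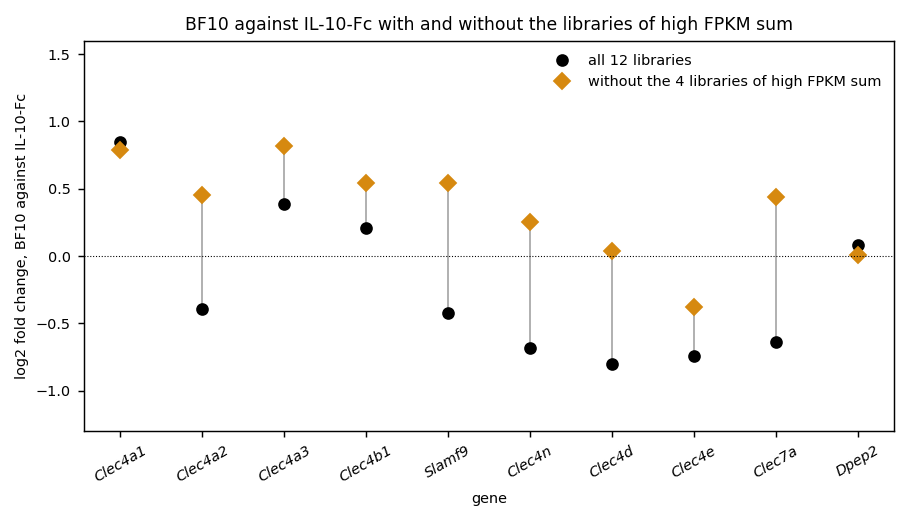
Log2 fold change of BF10 against IL-10-Fc (vertical axis) for each gene (horizontal axis), with all 12 libraries (black circles) and without the 4 libraries of high FPKM sum (orange diamonds). Clec4a2, Slamf9, Clec4n, Clec4d and Clec7a cross 0, and Clec4a1 stays above it at 0.85 and 0.79.

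Within the IL-10 groups, the 3 libraries of high FPKM sum were set against the other 3. The median difference was -0.062 log2 for the 3761 genes whose longest transcript has up to 1500 bases, -0.58 for 7167 genes of over 1500 to 4000 bases, and -0.765 for 4867 longer genes. Clec4d differed by 1.76, Clec7a by 1.58, Clec4n by 1.41, Clec4a2 by 1.22, Clec4e by 1.15 and Slamf9 by 1.09, all towards the high-sum libraries. Clec4a3 and Clec4b1 differed by 0.10 and 0.26, Dpep2 by -0.12, and Clec4a1 by -0.72. The longest transcripts of Clec4n, Clec4d, Slamf9, Clec4a3 and Clec4b1 have 1404, 1323, 1313, 1300 and 748 bases. Those of Clec4a1, Clec7a, Clec4a2, Dpep2 and Clec4e have 1558, 2277, 2481, 2936 and 4804 bases. The part of transcript length, RNA quality or tumour composition in these differences was not tested.

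IL-10-Fc and BF10 were then each compared with Ctrl-IgG. Both contrasts share the Ctrl-IgG libraries with the contrast that chose the list, and they cross the sides described above, so the treatment cannot be told apart from H2-Ea, Xist and Krt18. Tests were read for the 6 genes that the study does not name. In IL-10-Fc, Clec4a1 and Clec4a3 were called lower and Clec4n higher, where 23.6% of all genes were called lower and 10.1% higher and the median over all genes was -0.39. Clec4a1 fell, with a log2 fold change of -2.11 (SE 0.39, adjusted p = 2.22e-03), and stayed called in all 17 alternatives tried. Clec4n rose by 2.32 (SE 0.48, adjusted p = 4.05e-03), a 4.98-fold change, and was also called in all 17, with log2 fold changes of 1.41 to 2.92 (2.92 without IL-10-Fc 3). Clec4a3 fell, with -1.44 (SE 0.38, adjusted p = 0.0139), but was called in 12 of the 17 and had an adjusted p of 0.125 with median-of-ratios scaling.

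For Clec7a, Clec4e and Clec4d, the log2 fold changes in IL-10-Fc were 1.27, 0.99 and 0.80, with adjusted p of 0.0958, 0.0966 and 0.31. When IL-10-Fc 3, the library of low FPKM sum, was left out, all 6 tested genes were called, with Clec7a at 1.98, Clec4d at 1.45 and Clec4e at 1.34. The share of all genes called in that fit was not counted, and it leaves IL-10-Fc only libraries of high FPKM sum. Clec7a, Clec4d and Clec4e were higher by 1.58, 1.76 and 1.15 log2 in the high-sum libraries of the IL-10 groups. Among the genes that the study names, with no test, Clec4b1 had a log2 fold change of -1.25 (SE 0.37), Clec4a2 one of 0.26 (SE 0.53), Slamf9 one of 0.02 (SE 0.46) and Dpep2 one of 0.45 (SE 0.26). These values moved with the processing: Slamf9 was at -0.73 without the 4 libraries of high FPKM sum, Dpep2 at 0.90 with median-of-ratios scaling, and Clec4b1 at -2.07 with a pseudocount of 0.1.

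In BF10 against Ctrl-IgG, 1 of the 6 genes was called lower and 1 higher, where 13.2% of all genes were called lower and 11.8% higher. Clec4a1 fell, with a log2 fold change of -1.25 (SE 0.39, adjusted p = 0.038), and Clec4n rose by 1.64 (SE 0.48, adjusted p = 0.0288). Both calls depended on the libraries, since Clec4a1 was called in 7 and Clec4n in 10 of 17 alternatives. Without Ctrl-IgG 1, Ctrl-IgG 3, BF10 1 or BF10 2, none of the 6 was called, and without Ctrl-IgG 2 Clec4n alone was called. Clec4a3 had a log2 fold change of -1.05 (SE 0.38) that missed the threshold at an adjusted p of 0.0662, and Clec4d was at 0.00 (SE 0.59).

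Against aCSF1R, BF10 differed in 1 of the 6 tested genes, where 11% of all genes were called higher and 14% lower. Clec4n rose by 2.37 (SE 0.48, adjusted p = 4.59e-03), a 5.18-fold change, and was called in 16 of 17 alternatives. The exception was the fit without the 3 Krt14 libraries, which leaves aCSF1R with 1 library and gave an adjusted p of 0.171. Clec4a1 had a log2 fold change of -0.02 (SE 0.39, interval -0.89 to 0.84). No test was read for the genes that the study names. Clec4a2 was at 1.94 (SE 0.53), Slamf9 at 1.46 (SE 0.46), Dpep2 at 1.36 (SE 0.26) and Clec4b1 at 0.37 (SE 0.37). All 3 BF10 libraries of Clec4a2, Slamf9 and Dpep2 lay above all 3 aCSF1R libraries. The contrast crosses the sides described above, and the share of all genes with that order is not given here.

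**Figure D3:**
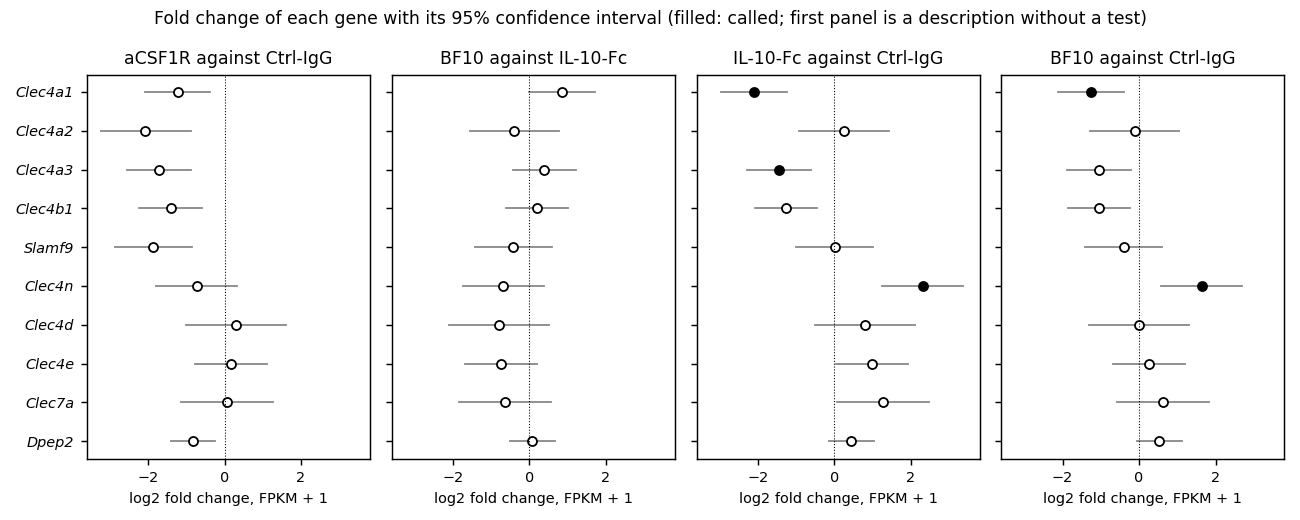
Log2 fold change (horizontal axis, log2(FPKM + 1) scale) of each gene in 4 comparisons, with its 95% confidence interval. Filled points were called, and the first panel is a description with no test. Clec4a1 lies below 0 in both panels against Ctrl-IgG that hold IL-10 (-2.11 and -1.25), and Clec4n lies above 0 in both (2.32 and 1.64).

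The values of the 7 clustered genes are given in the order of the genome, as a description with no test. The genes at the start of the cluster, Clec4a1, Clec4a3 and Clec4b1, had log2 fold changes of -2.11, -1.44 and -1.25 in IL-10-Fc against Ctrl-IgG. Clec4a2, in the middle, was at 0.26, and Clec4n, Clec4d and Clec4e at the end were at 2.32, 0.80 and 0.99. In aCSF1R against Ctrl-IgG, the first 4 genes lay between -1.23 and -2.07 and the last 3 between -0.73 and 0.30. The genes of the cluster are related copies, and these 7 values are not independent of one another.

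**Figure D4:**
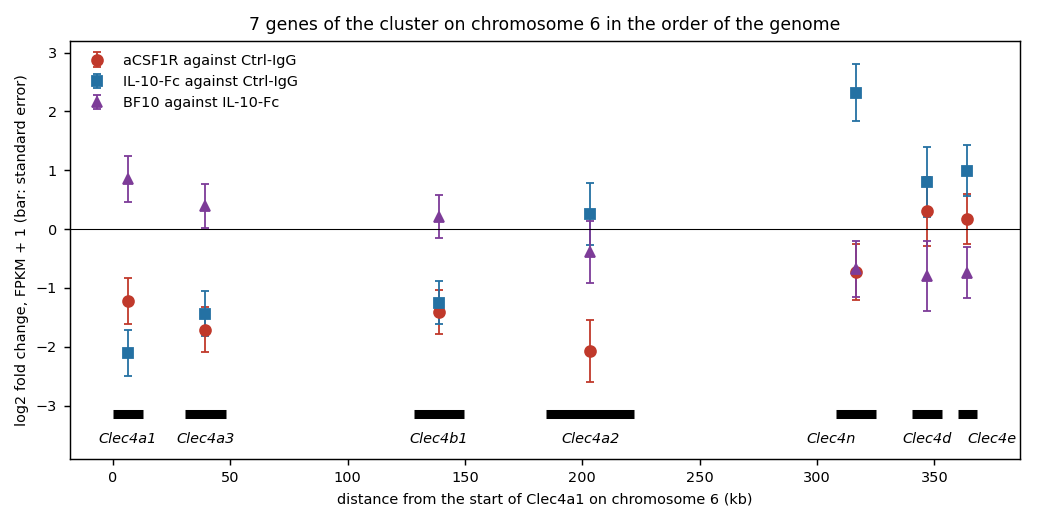
Log2 fold change with its standard error (vertical axis) of the 7 clustered genes against the distance from the start of Clec4a1 in kb (horizontal axis), for 3 comparisons. Black bars show the extent of each gene. Blue squares (IL-10-Fc against Ctrl-IgG) run from -2.11 at Clec4a1 to 2.32 at Clec4n, and red circles (aCSF1R against Ctrl-IgG) from -2.07 at Clec4a2 to 0.30 at Clec4d.

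Whole tumour RNA does not separate fewer cells of a type from less RNA per cell, so the 10 genes were set beside the levels of cell type markers. The 10 macrophage markers (Csf1r, Adgre1, Cd68, Mrc1, C1qa, C1qb, C1qc, Fcgr1, Mertk and Ms4a7), all of which passed the filter, summed to 463 to 835 FPKM in Ctrl-IgG, 272 to 289 in aCSF1R, 843 to 1365 in IL-10-Fc and 1106 to 1215 in BF10. Their mean log2 level was 5.10 ± 0.35 (SD, n = 3) in Ctrl-IgG and 4.15 ± 0.09 (SD, n = 3) in aCSF1R, a difference of -0.95, and the 3 aCSF1R libraries lay below all Ctrl-IgG libraries. C1qa, C1qb and C1qc, with Ctrl-IgG means of 165, 169 and 141 FPKM, weigh most in the sums. In aCSF1R against Ctrl-IgG the markers ran from -1.68 (Ms4a7) to 0.15 (Mertk), with a median of -1.15. None was called, where 0% of all genes were. In IL-10-Fc against Ctrl-IgG, 3 of the 10 were called higher and 0 lower, where 10.1% of all genes were called higher. Mertk and Cd68 were at -0.93 and -0.75 there. The part of macrophage RNA in the values of the 10 genes was not tested.

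Relative to the macrophage mean of the same library, the 10 genes split. Clec4a2, Slamf9 and Clec4a1 lay below every Ctrl-IgG library in aCSF1R, with differences of -1.12, -0.92 and -0.28. For Clec4a1 the gap was narrow, with aCSF1R 3 at -0.73 and Ctrl-IgG 3 at -0.71. The share of all genes with that order was not counted on this scale, and this contrast chose members of the list. Clec4a3 and Clec4b1 were at -0.77 and -0.47 with overlapping libraries, and Dpep2 and Clec4n at 0.12 and 0.21. For Clec4d, Clec4e and Clec7a the level relative to the macrophage mean was higher in aCSF1R than in Ctrl-IgG by 1.24, 1.12 and 1.00. In BF10 against IL-10-Fc, Clec4a1 was at 0.53 and Clec4d at -1.12 on the same scale, and for both the groups overlapped.

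**Figure D5:**
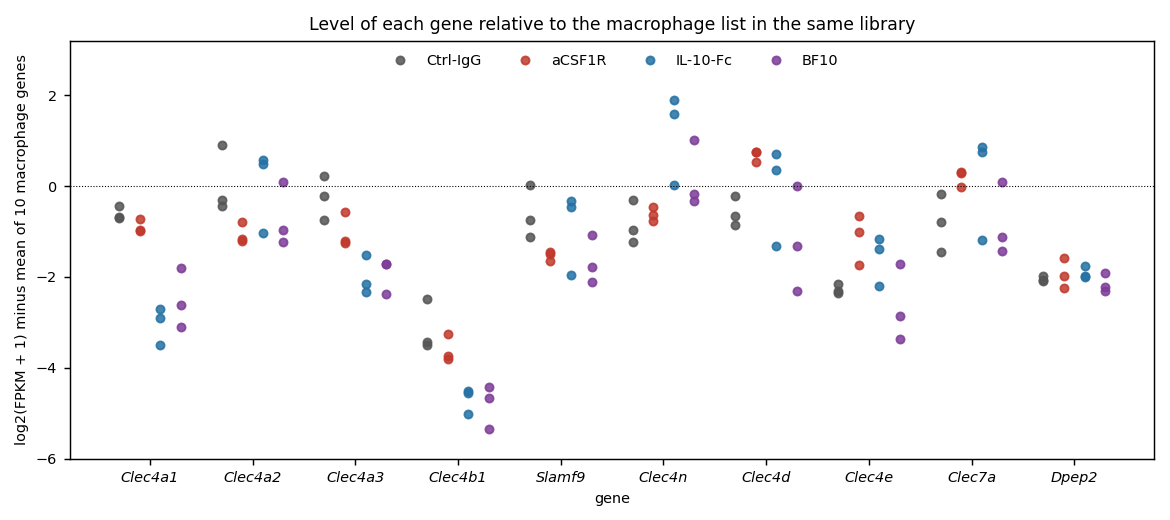
Log2(FPKM + 1) of each gene minus the mean of the 10 macrophage genes in the same library (vertical axis), by gene (horizontal axis) and treatment group (colours), with 1 point per library. In aCSF1R (red), Clec4a2 and Slamf9 lie below Ctrl-IgG (grey) while Clec4d lies above it, and Clec4a1 has means of -3.04 in IL-10-Fc and -2.51 in BF10 against -0.62 in Ctrl-IgG.

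Other cells that carry these receptors were followed in the same way. The 6 monocyte markers (Ly6c2, Ccr2, Plac8, Chil3, F13a1 and Cd14) summed to 221 to 360 FPKM in Ctrl-IgG, 143 to 321 in aCSF1R, 141 to 512 in IL-10-Fc and 161 to 361 in BF10. Of the 8 neutrophil markers, 7 passed the filter, and the list summed to 31 to 309 FPKM in Ctrl-IgG, 179 to 337 in aCSF1R, 1031 to 4542 in IL-10-Fc and 531 to 1661 in BF10. S100a8 reached 1891.7 FPKM in IL-10-Fc 1, and Ly6g, which marks neutrophils, reached 6.55 FPKM there and no more than 0.27 FPKM in any Ctrl-IgG or aCSF1R library. Ly6g did not pass the filter and was at 0.7 to 1.51 FPKM in the other IL-10-Fc and BF10 libraries. In IL-10-Fc against Ctrl-IgG, which crosses the sides described above, 5 of the 7 were called higher, where 10.1% of all genes were. Csf3r (0.32) and Cxcr2 (0.69) were not called there. In IL-10-Fc 1, IL-10-Fc 2 and BF10 1, where Clec4d, Clec4e, Clec7a and Clec4n were highest, 4 of the 8 neutrophil markers (S100a8, S100a9, Retnlg and Mmp8) lay above the other IL-10-Fc and BF10 libraries, 3 (Csf3r, Cxcr2 and Ngp) lay below them and Ly6g overlapped, and the part of neutrophil RNA in their levels was not tested. Of 8 dendritic cell markers, 4 passed the filter, and the list summed to 8.98 to 22.9 FPKM in all groups. Flt3 and Xcr1 reached at most 1.35 and 0.36 FPKM. Itgax, Batf3, Cd209a and Zbtb46 reached 13.07, 4.38, 4.13 and 3.85 FPKM. Ptprc (CD45), the leukocyte marker, was at 18.98 to 43.23 FPKM in Ctrl-IgG, 14.28 to 18.7 in aCSF1R, 19.62 to 49.98 in IL-10-Fc and 35.39 to 47.25 in BF10.

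The signalling partners of the receptors were measured in the same libraries. No gene of the lists below was called in aCSF1R against Ctrl-IgG, where 0% of the 15813 genes were called. A missing call or a high adjusted p in that contrast is therefore not particular to these lists. Fcer1g, the chain that Clec4d, Clec4e and Clec4n need, was at 161.34, 237.69 and 209.3 FPKM in Ctrl-IgG and at 85.43, 84.49 and 119.72 in aCSF1R, a difference of -1.06 log2 (SE 0.26, adjusted p = 0.92 by limma). All 3 aCSF1R libraries lay below all 3 Ctrl-IgG libraries, unlike those of Clec4d and Clec4e. In IL-10-Fc and BF10 it was at 142.72 to 232.7 FPKM. Of the 10 signalling genes (Fcer1g, Tyrobp, Syk, Lyn, Vav1, Plcg2, Prkcd, Card9, Bcl10 and Malt1), none was called in BF10 against IL-10-Fc or in either IL-10 group against Ctrl-IgG, and their median log2 fold changes there were 0.73, -0.19 and 0.56. In BF10 against aCSF1R, 4 of the 10 were called higher and none lower: Fcer1g (0.87), Tyrobp (1.70), Lyn (1.46) and Card9 (1.59). That contrast crosses the sides described above, and 11% of all genes were called higher and 14% lower in it. Syk, the shared kinase, was at 2.07, 1.26 and 5.81 FPKM in IL-10-Fc and at 2.04, 15.72 and 13.95 in BF10. Its 4 lowest libraries of the 12 were those of high FPKM sum. Of the phosphatases Ptpn6, Ptpn11 and Inpp5d, none was called in BF10 against IL-10-Fc or in either IL-10 group against Ctrl-IgG. Ptpn6, which binds the DCIR tail, was called higher in BF10 than in aCSF1R (2.13, SE 0.51, adjusted p = 0.0114 by limma). The shares over all genes given above apply to these contrasts.

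The other C-type lectins of the list chosen beside the 10 numbered 21, of which 10 passed the filter. Clec4a4 and Clec4b2, the remaining genes of the cluster, stood at no more than 0.46 and 0.07 FPKM in any library. Against Ctrl-IgG, 4 of the 10 were called higher and 1 lower in both IL-10-Fc and BF10. The 4 were Clec5a, a receptor that pairs with Tyrobp (3.00 and 2.29), Cd302 (1.87 and 1.68), Mgl2 (1.73 and 1.91) and the mannose receptor Mrc1 (1.48 and 1.55), and the 1 was Ly75 (-1.74 and -1.20). Over all genes, 10.1% were called higher and 23.6% lower in IL-10-Fc against Ctrl-IgG, and 11.8% and 13.2% in BF10. None of the 10 was called in BF10 against IL-10-Fc, where 0.00632% of all genes were called higher and 0.00632% lower. In BF10 against aCSF1R, 6 were called higher and 1 lower, where 11% of all genes were called higher and 14% lower. All of these contrasts except BF10 against IL-10-Fc cross the sides of H2-Ea, Xist and Krt18. Clec12a, an inhibitory lectin, was at 10.21, 25.13 and 13.69 FPKM in Ctrl-IgG and at 4.32, 4.59 and 5.43 in aCSF1R, a difference of -1.50 log2 (SE 0.37, adjusted p = 0.958 by limma), and was called higher in BF10 than in aCSF1R (1.57).

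Among 8 other SLAM family genes, 7 passed the filter. Slamf7, a receptor of NK and myeloid cells, was called lower in IL-10-Fc (-2.81) and BF10 (-2.09) than in Ctrl-IgG, and Cd244a likewise (-1.16 and -1.37). Slamf6 (1.59) and Ly9 (0.95) were called higher in BF10. Over all genes, 23.6% were called lower and 10.1% higher in IL-10-Fc against Ctrl-IgG, and 13.2% and 11.8% in BF10. These contrasts cross the sides of H2-Ea, Xist and Krt18. Slamf8, a close relative of Slamf9, was at 12.27, 10.23 and 11.24 FPKM in Ctrl-IgG and at 17.73, 20.03 and 19.75 in aCSF1R, the opposite order to Slamf9, and was higher there by 0.72 log2 (SE 0.27, adjusted p = 0.958 by limma). In BF10 against aCSF1R, 3 of the 7 were called higher and 3 lower, where 11% of all genes were called higher and 14% lower. None was called in BF10 against IL-10-Fc, where 0.00632% of all genes were called higher and 0.00632% lower. Of 8 genes of leukotriene synthesis and breakdown besides Dpep2, 7 passed the filter, and none was called in BF10 against IL-10-Fc. Ltc4s, which makes leukotriene C4 upstream of Dpep2, was at 0.1, 0.34 and 0.48 FPKM in Ctrl-IgG, at 2.81, 0.39 and 1.79 in IL-10-Fc and at 4.5, 5 and 6.76 in BF10, and in BF10 it was called above Ctrl-IgG (2.29, SE 0.33, adjusted p = 6.67e-04) and above aCSF1R (1.92). Lta4h was called lower in IL-10-Fc than in Ctrl-IgG (-0.92), and Dpep1 and Ggt5 lower in BF10 than in aCSF1R (-1.11 and -1.58). The contrasts of these leukotriene calls cross the same sides, with the shares over all genes given above.

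The 10 genes did not form one pattern. Over the 12 libraries, 22 of the 45 pairs had a Pearson's r over 0.5 and 9 had one of -0.01 or lower, from -0.57 (Clec4a1 with Clec7a) to 0.98. Clec4n with Clec7a had r = 0.85 and 0.98 over deviations from the group means, Clec4d with Clec4e 0.85 and 0.86, and Clec4a3 with Clec4b1 0.90 and 0.71. Clec4a1 and Clec4a3 had 0.78 over the libraries. Among 10273 other genes that averaged 5 FPKM or more, those most like the mean of the standardised values of the 10 over the 12 libraries were Fcgr4 (r = 0.958), Fcer1g (0.945), Cd300c2 (0.937), Sirpb1a (0.937) and Evi2a (0.935). Over deviations from the group means they were Cd300c2 (0.982), Sirpb1c (0.975), Fcer1g (0.960), Fgl2 (0.955) and Lst1 (0.942). These are descriptions over 12 points that share libraries, and the points share depth and tumour composition.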

How the data were processed

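The authors prepared stranded mRNA libraries (TruSeq) and deposited FPKM values per gene and library, aligned to mm10/GRCm38. The submitters' processing notes name STAR 2.7.5a, RSEM 1.3.3 and DESeq2 1.30.0. Deposited DESeq2 tables of 4 group comparisons (log2 fold changes, standard errors and p-values) were not used.

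Groups were taken from the treatment labels. Genes that reached 1 FPKM in 3 or more libraries were kept (15813), transformed to log2(FPKM + 1) and fitted with limma 3.58.1 (R 4.3.3; lmFit, contrasts.fit, eBayes with trend), with all 12 libraries in 1 model without covariates. Adjustment was by Benjamini-Hochberg over these 15813 genes, and a gene was called below an adjusted p of 0.05 if its fold reached 1.5. Adding 1 understates the change of low genes. The fit was tested on simulated data. Promoters came from RefSeq tables and gene positions from GENCODE M21, both GRCm38.

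Alternatives were the pseudocount, the filter, scaling, samples and covariates of the fit, and leaving out libraries. The members and lists were chosen with earlier results of these data known. Every member, genes of the lists (signalling partners, phosphatases, other lectins, SLAM family, leukotriene pathway, macrophage, monocyte, neutrophil, dendritic cell and leukocyte markers) and the 5 genes most like the members by correlation were named. Genes counted as named by the study were Clec4b1, Slamf9, Dpep2 and Clec4a, read as Clec4a2. A further gene first placed in the signalling list was removed as withheld and is not reported here. Lists of epithelial, muscle and fibroblast markers described the libraries.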

Additional observations from a re-analysis of the deposited data

Results flagged for a closer look

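For Clec4a1 and Dpep2, the libraries lay on opposite sides of the comparison group's mean in aCSF1R against Ctrl-IgG and in BF10 against IL-10-Fc. The libraries of both genes overlapped between BF10 and IL-10-Fc, and those of Dpep2 also between aCSF1R and Ctrl-IgG. In BF10 against IL-10-Fc, Clec4a1 was not called and no test was read for Dpep2. For Clec4a1, all 3 aCSF1R libraries lay below the Ctrl-IgG mean (log2 fold change -1.23), and all 3 BF10 libraries lay above the IL-10-Fc mean (0.85). For Dpep2, the aCSF1R libraries likewise lay below the Ctrl-IgG mean (-0.83) and the BF10 libraries above the IL-10-Fc mean (0.08). The difference between the 2 comparisons was not tested, because the first of them chose the genes, and Dpep2 in BF10 against IL-10-Fc changed sign under other settings. Groups of 3 libraries are too small for a check of single outlying libraries.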

How the results depend on the processing

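The cause of the changes given here was not tested. Of the 6 members tested, the 2 called in BF10 against Ctrl-IgG became 0 with all genes above 0, 1 as TPM, 1 with median-of-ratios scaling, 4 with the FPKM sum as covariate, 1 with only the compared groups and 0 without the 3 Krt14 libraries, and ranged from 0 to 2 without single libraries. The 3 called in IL-10-Fc against Ctrl-IgG ranged from 2 to 6 without single libraries. The share of all genes called was not counted in the alternatives. The 1 called in BF10 against aCSF1R became 0 without the 3 Krt14 libraries, and the 0 in BF10 against IL-10-Fc stayed 0 in all alternatives. The median member log2 fold change in BF10 against IL-10-Fc (-0.40) became 0.20 with the FPKM sum as covariate and 0.45 without the 4 libraries of high FPKM sum, and ranged from -0.96 to -0.05 without single libraries. That of aCSF1R against Ctrl-IgG ranged from -1.21 to -0.89.

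Signs of uncalled differences turned as follows. In BF10 against IL-10-Fc, Clec4a3, Clec4b1 and Dpep2 became -0.02, -0.01 and -0.33 with median-of-ratios scaling and -0.02, -0.10 and -0.34 with quantile normalization. Clec4a2, Clec4d, Clec4n, Clec7a and Slamf9 became 0.34, 0.04, 0.03, 0.18 and 0.21 with the FPKM sum as covariate, and 0.45, 0.04, 0.25, 0.44 and 0.54 without the 4 libraries of high FPKM sum. Dpep2 became -0.02 with a term for the code in the sample titles and ranged from -0.02 to 0.14 without single libraries. In BF10 against aCSF1R, Clec4a1 became 0.15, 0.16, 0.03 and 0.17 under those 4 settings and ranged from -0.49 to 0.24 without single libraries. Clec4e became -0.06 with the covariate, -0.25 without the 4 libraries and -0.49 without the 3 Krt14 libraries, and ranged from -0.26 to 0.41 without single libraries. Clec4d ranged from -0.76 to 0.23 there. Without the 4 libraries, Clec4d in IL-10-Fc against Ctrl-IgG became -0.29 and Clec4e in BF10 against Ctrl-IgG -0.08, with a range of -0.07 to 0.59 without single libraries. Median-of-ratios scaling moved the median of all genes in IL-10-Fc against Ctrl-IgG from -0.39 to 0.01.

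Of 475 member fold changes with a fitted p over all alternatives, 411 kept their sign and side of the threshold, 23 lost and 7 gained a call, and 34 changed sign. No paired analysis was possible because the codes in the sample titles are not stated to be replicates, and the numbers used here follow the order of the samples and pair nothing. The alternatives without the 4 or the 3 libraries were chosen after seeing the data. With 3 libraries a group and no counts, small differences in low genes such as Clec4b1 cannot be resolved.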

Other observations

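Markers that describe the rest of the tumour also differed between groups that were compared. The 6 epithelial markers (Epcam, Krt5, Krt14, Krt8, Krt18 and Trp63) summed to 0.58 to 576 FPKM in Ctrl-IgG, 0.95 to 520 in aCSF1R, 514 to 1246 in IL-10-Fc and 856 to 1285 in BF10. The 4 skeletal muscle markers (Acta1, Ckm, Myh4 and Tnnt3) summed to 7.46 to 547 FPKM in Ctrl-IgG and 46.1 to 353 in aCSF1R, but to 2.87 to 5.84 in IL-10-Fc and 4.31 to 49.5 in BF10. The 4 fibroblast markers (Col1a1, Col3a1, Pdgfra and Dcn) summed to 142 to 470, 356 to 484, 732 to 1637 and 1127 to 1553 FPKM in the same order. No epithelial, muscle or fibroblast marker was called in BF10 against IL-10-Fc, where 0.00632% of all genes were called higher and 0.00632% lower.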
